A study of Homo sapiens with 18 samples.

Results

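CpG-rich promoter windows were the 1001 bp windows of the accessibility table whose centre lay within 500 bp of the canonical start of a protein-coding gene on an autosome, with a GC content over 50% and an observed to expected CpG ratio over 0.6. There were 10812 of them among the 89428 windows of the table. They covered the starts of 10920 genes, 716 of which had more than 1 such window, and 790 windows lay at the starts of more than 1 gene. Neighbouring windows share 101 bp and are not independent. The comparison classes were the 2711 windows at gene starts that missed the GC or CpG limit, called CpG-poor promoter windows here, and the 75905 windows away from gene starts.

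Accessibility was measured by ATAC-seq, in which the transposase Tn5 inserts sequencing adapters into open DNA, in 6 established ovarian cancer lines of human origin, with 3 libraries of each. A2780 is a platinum-sensitive line labelled as endometrial or ovarian, and CP70 is a platinum-resistant line derived from it by selection in culture. PEA1 and PEA2 were grown from ascites of the same patient, PEA1 before platinum chemotherapy and PEA2 after relapse with resistant disease. PEO1 and PEO4 came from another patient who had already received platinum-based chemotherapy when either line was isolated, PEO1 before and PEO4 after clinical resistance. Each group is a single line, so a difference within a pair is a difference between those lines, and a role of platinum resistance cannot be told apart from other differences between them. All lines were grown in RPMI-1640 with glutamine and fetal bovine serum, and no drug treatment is given for any library. The sources used here do not say whether the 3 libraries of a line came from separate cultures, so p-values measure only the spread between these libraries, which may be technical.

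CpG dinucleotides are the main site of DNA methylation in human cells, and most of the genome has lost them because methylated cytosine mutates easily. CpG islands, where CpG remains frequent, cover the starts of most housekeeping genes and of many developmental genes, and are usually unmethylated, free of stable nucleosomes and open in every cell type. Dense methylation of such a promoter is a known route to silencing of tumour suppressor genes.

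The bases around the start are printed for 7 genes on which the results below turn, from 250 bases before the start onward, 300 bases each, on the coding strand in GRCh37. CG dinucleotides are in capitals. GOLIM4 had one of the highest mean levels, and TRIM11 and TBX18 had the smallest and the largest difference between lines. The other genes, and TBX18 in the PEA pair, had the largest change of a pair in one direction, MAP3K5 and GLIPR1L2 in the A2780 pair and ZSCAN31 and DNAH9 in the PEO pair. GLIPR1L2 held 12 CpG in these bases and ZSCAN31 15, against 40 in MAP3K5.
GOLIM4 (chr3:167813663-167813962, minus strand): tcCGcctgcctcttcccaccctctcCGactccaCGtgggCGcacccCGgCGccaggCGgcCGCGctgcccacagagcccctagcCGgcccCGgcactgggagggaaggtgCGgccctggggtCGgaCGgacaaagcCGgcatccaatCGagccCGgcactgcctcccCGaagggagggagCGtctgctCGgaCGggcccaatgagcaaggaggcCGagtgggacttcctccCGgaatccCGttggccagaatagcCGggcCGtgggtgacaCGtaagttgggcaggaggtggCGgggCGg
TRIM11 (chr1:228594487-228594786, minus strand): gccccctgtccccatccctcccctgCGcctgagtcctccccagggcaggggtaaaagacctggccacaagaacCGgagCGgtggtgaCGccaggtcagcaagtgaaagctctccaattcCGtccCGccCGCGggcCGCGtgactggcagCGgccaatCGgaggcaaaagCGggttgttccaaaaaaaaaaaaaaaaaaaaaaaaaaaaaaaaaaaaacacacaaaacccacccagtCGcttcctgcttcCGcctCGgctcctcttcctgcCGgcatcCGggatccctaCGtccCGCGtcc
TBX18 (chr6:85474267-85474566, minus strand): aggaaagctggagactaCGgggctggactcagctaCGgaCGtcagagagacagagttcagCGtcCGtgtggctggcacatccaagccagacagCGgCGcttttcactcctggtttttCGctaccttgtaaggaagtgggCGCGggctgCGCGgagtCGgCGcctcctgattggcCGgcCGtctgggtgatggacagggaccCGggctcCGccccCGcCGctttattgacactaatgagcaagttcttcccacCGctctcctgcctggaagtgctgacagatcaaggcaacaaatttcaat
MAP3K5 (chr6:137113566-137113865, minus strand): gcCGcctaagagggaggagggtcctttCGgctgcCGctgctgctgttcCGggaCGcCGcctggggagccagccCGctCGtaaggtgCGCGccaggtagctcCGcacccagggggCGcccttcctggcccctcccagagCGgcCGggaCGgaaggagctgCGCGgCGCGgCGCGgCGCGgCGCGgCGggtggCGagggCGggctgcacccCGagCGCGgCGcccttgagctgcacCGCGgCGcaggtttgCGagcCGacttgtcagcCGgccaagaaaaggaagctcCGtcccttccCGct
GLIPR1L2 (chr12:75784619-75784918, plus strand): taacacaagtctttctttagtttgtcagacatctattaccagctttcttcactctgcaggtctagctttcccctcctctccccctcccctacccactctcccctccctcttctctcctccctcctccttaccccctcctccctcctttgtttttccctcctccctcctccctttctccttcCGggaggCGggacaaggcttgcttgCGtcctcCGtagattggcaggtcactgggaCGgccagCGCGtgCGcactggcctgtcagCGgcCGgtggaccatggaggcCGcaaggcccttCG
ZSCAN31 (chr6:28303876-28304175, minus strand): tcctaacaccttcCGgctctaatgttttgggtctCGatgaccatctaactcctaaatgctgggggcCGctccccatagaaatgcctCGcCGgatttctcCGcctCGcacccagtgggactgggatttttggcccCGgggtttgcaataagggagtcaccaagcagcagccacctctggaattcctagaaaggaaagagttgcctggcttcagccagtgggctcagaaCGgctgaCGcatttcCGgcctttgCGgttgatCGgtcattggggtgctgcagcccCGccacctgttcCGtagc
DNAH9 (chr17:11501537-11501836, plus strand): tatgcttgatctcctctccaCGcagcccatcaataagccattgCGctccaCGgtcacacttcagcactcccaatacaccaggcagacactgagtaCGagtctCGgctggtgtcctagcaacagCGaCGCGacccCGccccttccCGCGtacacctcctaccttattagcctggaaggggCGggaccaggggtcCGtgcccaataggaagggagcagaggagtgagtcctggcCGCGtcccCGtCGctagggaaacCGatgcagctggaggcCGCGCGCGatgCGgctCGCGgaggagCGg

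Over the whole windows the median GC content was 64.04%, the median CpG ratio 0.80, and the median number of CpG 80, with 49 at the 5th and 131 at the 95th percentile. CpG-poor promoter windows had a median of 37 CpG, and windows away from gene starts 16. The genome grid from which the table was drawn holds 11774 CpG-rich promoter windows, of which 91.8% were in the table, against 34.2% of 7916 CpG-poor promoter windows. The table holds 2.60% of the grid, since each of its windows exceeded 2 FPKM, a read density scaled to window length and library total, in at least 2 of the 18 libraries. The 962 CpG-rich promoter windows outside the table are not analysed here, so shares of open windows apply to windows that had signal in some library.

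Short sequence motifs were searched on both strands of every promoter window of the grid. The SP and KLF motif GGGCGG was in 95.3% of the CpG-rich windows of the table, in 44.8% of the CpG-poor windows of the grid and in 74.9% of all promoter windows of the grid. The motif CCGGAAG of ETS factors was in 27.6% of the CpG-rich windows, 10.9% of the CpG-poor and 20.3% of all. GCGCATGC of NRF1 was in 7.71%, 2.78% and 5.54%, and TCTCGCGA of ZBTB33 in 3.26%, 0.404% and 2.03%. Of the motifs without CG, TATAAA was in 15.7% of the CpG-rich windows and in 42.0% of the CpG-poor windows (26.5% of all), TGANTCA of AP-1 in 11.2% and 24.4% (16.5%), and CCAAT in 58.9% and 72.3% (64.2%), while AAGATGGC of YY1 was in 8.07% and 5.09% (6.62%). The share of CpG-rich windows was 4.11% for the CRE TGACGTCA (3.17% of all) and 20.5% for the E-box CACGTG (17.5% of all). In the letters printed above a match is a description only. Motif letters with CG are in part set by the rule that chose the windows.

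CpG-rich promoters were the most open class of window in every library. The median level of these windows was 2.18, 2.48 and 1.93 FPKM in the A2780 libraries, 4.39, 2.93 and 2.97 in CP70, 3.78, 3.86 and 2.88 in PEA1 and 2.91, 2.60 and 2.80 in PEA2. It was 7.89, 8.29 and 7.69 FPKM in PEO1 and 8.08, 8.59 and 7.497 in PEO4. Every PEO1 and PEO4 library lay above every library of the other 4 lines, PEO1 and PEO4 overlapped, and replicate 1 of CP70 lay above the other libraries of its line. FPKM is scaled to all reads of a library, and the table took 8.38% to 40.8% of those reads, most in the PEO lines, so the order of the levels moves with that share and its part in the difference was not tested. CpG-rich promoters took 29.6% ± 1.62 (SD, n = 3) of the reads of the table in A2780 against 31.9% ± 2.78 in CP70, 27.3% ± 0.719 in PEA1 against 19.3% ± 0.275 in PEA2, and 27.4% ± 0.341 in PEO1 against 31.8% ± 0.866 in PEO4. The PEA2 share was below that of every other line by more than the spread between libraries.

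The median level of CpG-rich promoters was 3.83 times that of windows away from gene starts for A2780 and 5.07 times for CP70, 3.52 times for PEA1 but 1.69 times for PEA2, and 3.15 and 4.07 times for PEO1 and PEO4. The ratio was 1.70 to 1.73 in the 3 PEA2 libraries and 3.12 to 6.44 in the other 15, so that the contrast between promoters and the rest of the table was smallest in PEA2 in every library. Against CpG-poor promoters the ratio was 1.34 in PEA2 and 1.66 to 1.95 in the other lines. In PEA2 the windows away from gene starts had a median of 1.63 FPKM, against 0.996 in PEA1.

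**Figure D1:**
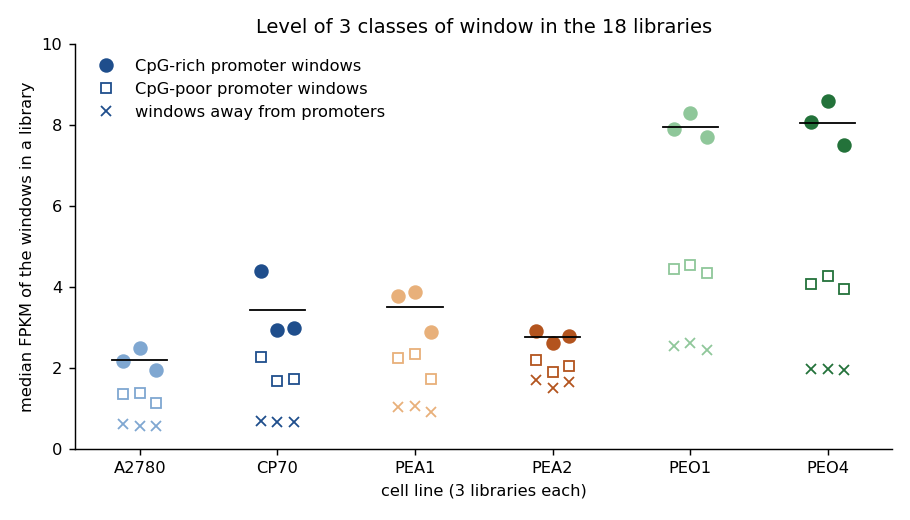
Median FPKM (vertical axis) of CpG-rich promoter windows (filled circles), CpG-poor promoter windows (open squares) and windows away from promoters (crosses) in each of 18 libraries, grouped by cell line, with the mean of the 3 circles as a black line. The circles are highest in PEO1 and PEO4 (7.497 to 8.59), and the 3 symbols lie closest together in PEA2.

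CpG-rich promoters were also the most widely shared windows of the table. Its windows entered by exceeding 2 FPKM in at least 2 libraries, which a single line can supply. Windows open in a single line are thus in part admitted by this rule, and its part in the shares below was not tested. Of the 10812, 34.9% exceeded 2 FPKM in all 18 libraries and 76.9% exceeded 1 FPKM in all 18, against 9.85% and 41.2% of CpG-poor promoter windows and 2.03% and 10.4% of windows away from gene starts. A line mean over 2 FPKM in a single line was found for 4.01% of CpG-rich promoters, 16.6% of CpG-poor promoters and 42.8% of the other windows. Among the 1000 windows of the table with the highest mean level, 74.0% were CpG-rich promoters, and 55.3% among the highest 10000. The difference between the highest and the lowest line mean, on the log2(FPKM + 0.1) scale, had a median of 2.24 in CpG-rich promoters and 2.60 in windows away from gene starts. The 6 lines differed by over 2 on this scale at 6779 of 10779 CpG-rich promoters tested (62.9%, limma F-test with Benjamini-Hochberg adjusted p under 0.001), against 71.4% of all windows tested. After median centring of each library the count was 3088, so that much of it moved with the level of whole libraries.

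PEO4 was the highest line at 46.1% of CpG-rich promoters and PEO1 at 43.98%, and A2780 was the lowest at 52.04% and PEA2 at 29.7%. After median centring no line was the highest at more than 25.1%, the value of PEA2. Across the 10812 windows the Spearman correlation of line means was 0.87 between A2780 and CP70 and 0.86 between PEO1 and PEO4, but 0.58 between PEA1 and PEA2, and it was lowest between PEA2 and PEO4 at 0.48. These are correlations across windows, which are not replicates and share base composition.

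At single genes the levels ranged widely. EBAG9 had the highest mean over the 6 lines, with 96.7 FPKM in PEO1, 83.7 in PEO4 and 11.0 to 18.3 in the other 4 line means. RRM2B, a p53-induced subunit of ribonucleotide reductase, had 94.9 FPKM in PEO4 and 74.8 in PEO1, and both lie on the long arm of chromosome 8 with NUDCD1, ENY2 and TRIB1, which were also among the 6 highest windows. GOLIM4, which encodes a Golgi membrane protein, had 92.2 FPKM ± 3.15 (SD, n = 3) in PEO1 and 39.1 ± 1.76 in PEO4 but 10.0 ± 1.73 in A2780. P4HB, which encodes protein disulfide isomerase, had 93.3 FPKM in PEO4, 57.7 in PEO1 and 5.38 to 11.9 in the other 4 line means. TRIM11, a ubiquitin ligase gene, was the most even. It had 4.18, 4.21 and 3.11 FPKM in A2780, 4.09, 2.51 and 3.27 in CP70, 3.75, 3.80 and 3.16 in PEA1 and 3.96, 3.18 and 3.24 in PEA2. The PEO libraries had 4.45, 3.49 and 3.57 in PEO1 and 3.66, 4.18 and 3.89 in PEO4. All 6 lines overlapped at TRIM11, the log2 range of the line means was 0.27, and the PEO lines did not stand above the others there, unlike at most promoters. The next most even were MIA3 (0.29), EPHX1 (0.29), ABCC4 (0.36), the shared promoter of JMJD4 and SNAP47 (0.41) and NT5M (0.42), and TRIM11, MIA3, EPHX1 and JMJD4 lie on the long arm of chromosome 1.

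The largest range was at TBX18, a T-box transcription factor gene, at chr6:85473900-85474900. It had 0.732, 0.901 and 0.893 FPKM in A2780, 0.379, 0.180 and 0.544 in CP70 and 0.288, 0.0935 and 0.384 in PEA1, against 4.89, 2.89 and 4.39 in PEA2, 29.8, 30.9 and 30.7 in PEO1 and 21.7, 19.7 and 22.3 in PEO4. PEA2 and both PEO lines lay above the other 3 lines without overlap, and the log2 range of the line means was 6.53. The range was 6.07 at TBX3, 5.82 at MNS1, 5.78 at RAB38 and 5.75 at CDKN2B.

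The resistant line of each pair was set against the sensitive one by limma on log2(FPKM + 0.1), a scale on which a fold change understates the change of low windows. The median log2 fold change over all windows tested was 0.59 in CP70, 0.31 in PEA2 and -0.30 in PEO4, and changes are to be read against it. Over CpG-rich promoters it was 0.60 in CP70, -0.29 in PEA2 and 0.00 in PEO4, so that relative to all windows they stood at 0.01, -0.60 and 0.30. Relative to the median of its library, the median CpG-rich promoter stood at 0.95 to 1.05 in the PEA1 libraries and at 0.28 to 0.38 in the PEA2 libraries, at 1.23 to 1.29 in PEO1 and at 1.55 to 1.69 in PEO4. These ranges did not overlap in either pair. In A2780 (0.55 to 0.68) and CP70 (0.54 to 0.80) they overlapped. The direction in PEA2 and PEO4 was kept under every scaling tried, but the size was not: removing the median change of windows of the same GC content left -0.21 in PEA2 and 0.05 in PEO4.

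**Figure D2:**
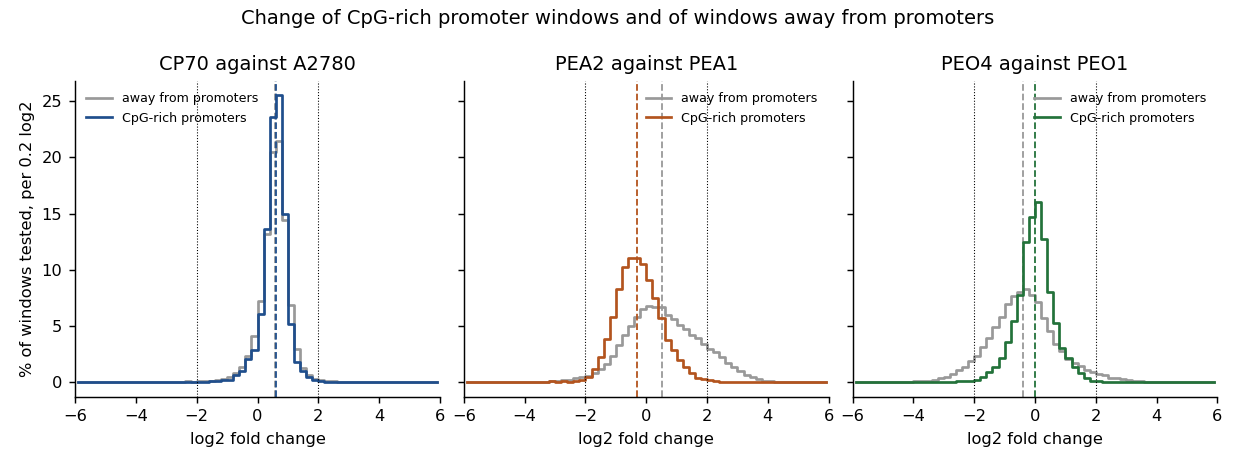
Share of windows tested (vertical axis, % per 0.2 log2) by log2 fold change of the resistant against the sensitive line (horizontal axis) in the 3 pairs, for CpG-rich promoters (coloured) and windows away from promoters (grey), with dashed lines at the medians and dotted lines at -2 and 2. The coloured curve is narrower in every panel, coincides with the grey one in CP70, lies to its left in PEA2 and to its right in PEO4.

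CpG-rich promoters varied less within a pair than other windows. The interquartile range of their log2 fold change was 0.41 in CP70, 0.96 in PEA2 and 0.70 in PEO4, against 0.50, 1.66 and 1.33 in windows away from gene starts. Calls required a log2 fold change over 2 in size and a limma p under 0.001 after Benjamini-Hochberg adjustment over all windows tested. In CP70, 15 of 10223 CpG-rich promoters were higher (0.147%, all windows 0.428%) and 7 lower (0.0685%, all windows 0.369%). In PEA2, 63 of 10607 were higher (0.594%, all windows 11.2%) and 68 lower (0.641%, all windows 1.42%). In PEO4, 23 of 10647 were higher (0.216%, all windows 2.72%) and 52 lower (0.488%, all windows 5.78%). In each of these sets the share was below that of all windows. That background holds only windows that passed the entry rule of the table, and the part of this rule was not tested. Every library of the called line lay beyond every library of its partner at all 228 calls, which the thresholds all but require.

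Counts in the A2780 pair rested on single libraries. Without replicate 1 of CP70, 5 CpG-rich promoters were called higher, without replicate 3 of CP70 32, and without replicate 2 of A2780 25 were called higher and 4 lower. The split between higher and lower changed with the scaling. Median centring left 1 higher call against 22 lower for CP70, 29 against 221 for PEA2, and 71 against 27 for PEO4, and quantile normalisation 1 against 15, 28 against 261, and 44 against 30. With 5 Mb bin medians removed, they were 0 against 10, 8 against 33, and 19 against 19. This removal took from each library its median over all tested windows of a bin, CpG-rich promoters included. Bin medians given below for single windows are median log2 fold changes of windows that are not CpG-rich promoters. A value left is therefore not exactly the log2 fold change less the bin median. Removal of the median change of windows of like GC content left 0 against 25, but 75 against 57 for PEA2 and 19 against 54 for PEO4.

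Smaller changes were common. At a limma adjusted p under 0.05 with no limit on size, 4597 CpG-rich promoters were higher in CP70 (45%, all windows 47.5%) and 132 lower (1.29%, all windows 2.29%), close to the shares over all windows. In PEA2 1592 were higher (15%, all windows 43.0%) and 4068 lower (38.4%, all windows 21.4%). In PEO4 2945 were higher (27.7%, all windows 21.9%) and 3043 lower (28.6%, all windows 45.8%). Median centring changed these to 589 against 791 for CP70, 1020 against 7009 for PEA2, and 5849 against 1429 for PEO4, and the GC removal to 478 against 934, 2391 against 4073, and 2690 against 2872. The balance in CP70 and PEO4 thus turned with the scaling, while PEA2 kept more lower than higher under both.

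The promoters that fell in CP70 included GLIPR1L2 and FSIP2, both known for expression in testis. GLIPR1L2 had 3.78, 5.86 and 4.17 FPKM in A2780 and 0.606, 0.120 and 0.544 in CP70, without overlap, with a log2 fold change of -3.32 (limma, SE 0.25, adjusted p = 4.3e-35). FSIP2, which encodes a sperm tail protein, had 2.25, 3.38 and 2.38 FPKM in A2780 and 0.758, 0.239 and 0.377 in CP70 (log2 fold change -2.40). It was also called in PEO4 in the other direction, from 0.506, 0.436 and 0.446 FPKM in PEO1 to 7.44, 7.10 and 7.37 in PEO4, a log2 fold change of 3.72 (limma, SE 0.22, adjusted p = 3.2e-17). MEF2C, a transcription factor gene of muscle and neurons, fell from 2.50 to 0.544 FPKM (log2 fold change -2.07), and the zinc-finger genes ZNF718 and ZNF726 fell with changes of -2.32 and -2.31. CYP7B1, which encodes a sterol hydroxylase, fell from 3.07 to 0.693 FPKM (-2.06). The medians of the 5 Mb bins of these 6 were 0.01 to 0.63, none below 0, against 0.59 over all windows tested. Those of FSIP2 (0.63) and CYP7B1 (0.62) lay above 0.59. Those of MEF2C (0.01), GLIPR1L2 (0.36), ZNF726 (0.44) and ZNF718 (0.51) lay below it. With bin medians removed, all of these 6 but ZNF726 were still called.

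The 15 windows higher in CP70 also lay in bins with a positive median, over 1 for 9 of them. With a median of 0.59 over all windows tested, a positive bin median is common in this pair. Of the 15, 10 were on chromosome 6, at the genes from HSF2 to ZBTB2. MAP3K5, which encodes the stress-activated kinase ASK1, had 1.15, 1.53 and 1.21 FPKM in A2780 and 11.5, 7.06 and 6.78 in CP70, without overlap. Its log2 fold change was 2.58 (limma, SE 0.28, adjusted p = 3.4e-17), the median of its bin was 1.74, and with bin medians removed 0.80 was left. ULBP3, a ligand of the natural killer cell receptor NKG2D, rose from 1.15 to 6.97 FPKM (log2 fold change 2.46, bin median 1.44), and PERP, a p53 target, and ARFGEF3 rose by 2.25 each in a bin with a median of 1.74. Elsewhere CD55, a complement inhibitor, rose from 2.26 to 12.5 FPKM (log2 fold change 2.36, bin median 0.43), and ZNF354C from 0.495 to 2.80 FPKM (2.28, bin median 0.42). The retinoic acid receptor gene RARB rose by 2.14. After bin medians were removed 0 of the 15 were called, with 1.98 left for CD55 and 1.93 for ZNF354C.

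In PEA2 the largest rise was at TBX18, whose libraries are given above, with a log2 fold change of 3.62 (limma, SE 0.28, adjusted p = 3.8e-37). The median of its 5 Mb bin was 1.99, and 1.67 was left with bin medians removed. TBX3, another T-box gene, had 0.384, 0.374 and 0.575 FPKM in PEA1 and 7.42, 4.74 and 6.97 in PEA2, a log2 fold change of 3.57 (limma, SE 0.24, adjusted p = 4.8e-47), with a bin median of 0.58. TIMP3, an inhibitor of matrix metalloproteinases and a known target of promoter methylation, rose from 0.224, 0.374 and 0.432 FPKM to 4.12, 3.99 and 3.42 (log2 fold change 3.18, bin median 1.11). In both genes every PEA2 library lay above every PEA1 library.

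CADM1, which encodes a cell adhesion molecule, had 0.449, 0.561 and 0.575 FPKM in PEA1 and 4.95, 4.62 and 5.68 in PEA2. Its log2 fold change was 3.05 (limma adjusted p = 2.3e-34), with no overlap, and its bin was the only one among the 63 windows with a median of the other sign (-0.09). MSX2, a homeobox gene, rose from 0.660 to 6.57 FPKM (3.14), and THBD, which encodes the anticoagulant receptor thrombomodulin, from 0.884 to 9.92 FPKM (3.39, bin median 1.78). Of the 63 windows higher in PEA2, 52 lay in bins with a median over 1, and 6 were still called after bin medians were removed: EPHA4, MSX2, BRINP1, CADM1, TBX3 and TIMP3.

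The 68 windows lower in PEA2 were crowded in few regions. The end of the short arm of chromosome 16, from 0 to 5 Mb, held 33 of them, and the first 20 Mb of chromosome 10 held 16. DECR2, which encodes a peroxisomal enzyme of fatty acid oxidation, had 8.01, 7.04 and 4.70 FPKM in PEA1 and 0.440, 0.809 and 0.577 in PEA2. AXIN1, a scaffold of the beta-catenin destruction complex, had 17.7, 16.6 and 12.04 FPKM in PEA1 and 1.70, 1.33 and 1.77 in PEA2. The libraries did not overlap at either gene. The log2 fold changes were -3.24 for DECR2 (limma, SE 0.24, adjusted p = 1.2e-40) and -3.18 for AXIN1 (limma adjusted p = 8.1e-42). CAPN15, PIGQ, PGAP6 and LUC7L in the same region fell to 1.48, 0.951, 0.869 and 0.908 FPKM, from 14.3, 9.17, 8.12 and 8.50. Windows of this bin that were not CpG-rich promoters had a median of -1.89. With bin medians removed, -1.61 was left for DECR2 and -1.56 for AXIN1. Of the 68 windows 67 lay in bins with a negative median, 58 of them beyond 1, and 3 were still called after bin medians were removed, among them POU3F3 and NAGPA.

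In PEO4 the largest rise was at ZSCAN31, a zinc-finger gene, at chr6:28303200-28304200. PEO1 held 1, 2 and 0 reads there, while PEO4 had 4.48, 5.76 and 3.69 FPKM, and the other 4 line means were 1.69 to 3.65 FPKM. Against the 3 reads taken as the limit of detection PEO4 was higher by at least 15.5-fold (limma, adjusted p = 1.4e-13). C3orf14 rose from 0.307 to 3.37 FPKM (log2 fold change 3.55), ECT2L from 0.253 to 3.30 (3.38, in a bin with a median of -0.55) and GNE, the key enzyme of sialic acid synthesis, from 0.352 to 2.26 (2.66). After bin medians were removed 13 of the 23 were still called, HEYL, CRABP2, DUSP2, EMX2, YBX2 and NFATC1 among them.

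The largest fall of all CpG-rich promoters was at DNAH9, which encodes a dynein heavy chain of motile cilia, at chr17:11501100-11502100. It had 6.68, 9.07 and 6.80 FPKM in PEO1 and 1, 2 and 2 reads in PEO4, lower by at least 48.2-fold (limma, adjusted p = 9.6e-18). The bin median was -0.94. PLD5 had 11.4, 10.2 and 13.4 FPKM in PEO1 and 0.233, 0.432 and 0.598 in PEO4, without overlap (log2 fold change -4.55, bin median -1.99), and DLGAP1, which encodes a scaffold of synapses, fell from 11.6 to 0.615 FPKM (-4.06, bin median -0.67). XYLT1 and RYR2, for a xylosyltransferase and the cardiac ryanodine receptor, fell by 3.30 and 3.19 on the log2 scale. HOXC9 had 3.34, 3.84 and 3.23 FPKM in PEO1 and 0.291, 0.288 and 0.299 in PEO4, a log2 fold change of -3.18 (limma adjusted p = 6.4e-12) in a bin with a median of 0.05. Of the 52 windows lower in PEO4, 47 lay in bins with a negative median, 26 of them beyond 1, and 16 were still called after bin medians were removed, including DNAH9, PLD5, HOXC9, HOXC10 and the shared promoter of the imprinted genes PEG3 and ZIM2.

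**Figure D3:**
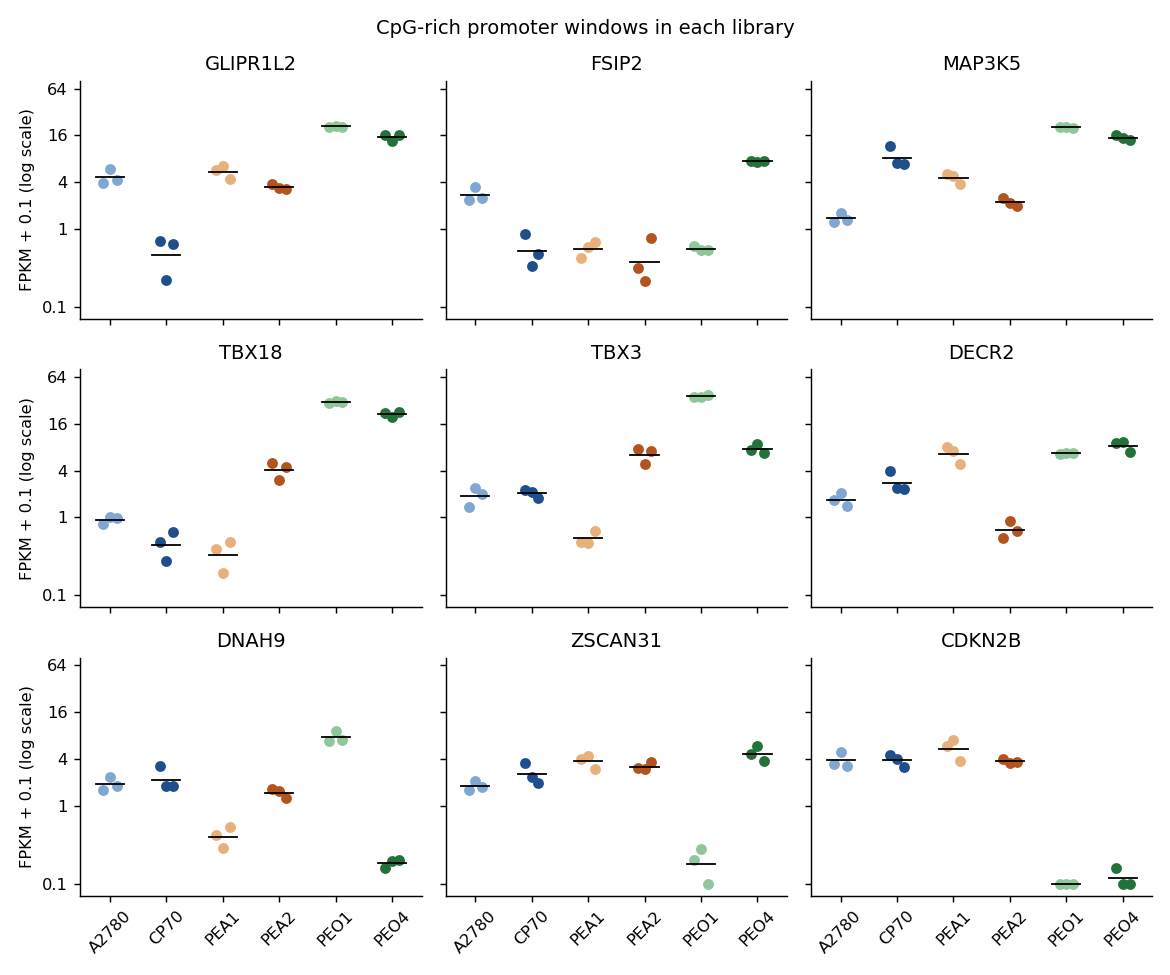
Accessibility (vertical axis, FPKM + 0.1, log2-spaced) of 9 CpG-rich promoters in the 3 libraries (points) of each of 6 lines, with the mean on the log scale as a black line. GLIPR1L2 is lowest in CP70, DECR2 in PEA2, ZSCAN31 in PEO1, DNAH9 in PEO4 and CDKN2B in both PEO lines, while TBX3 and TBX18 are lowest in PEA1.

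**Figure D4:**
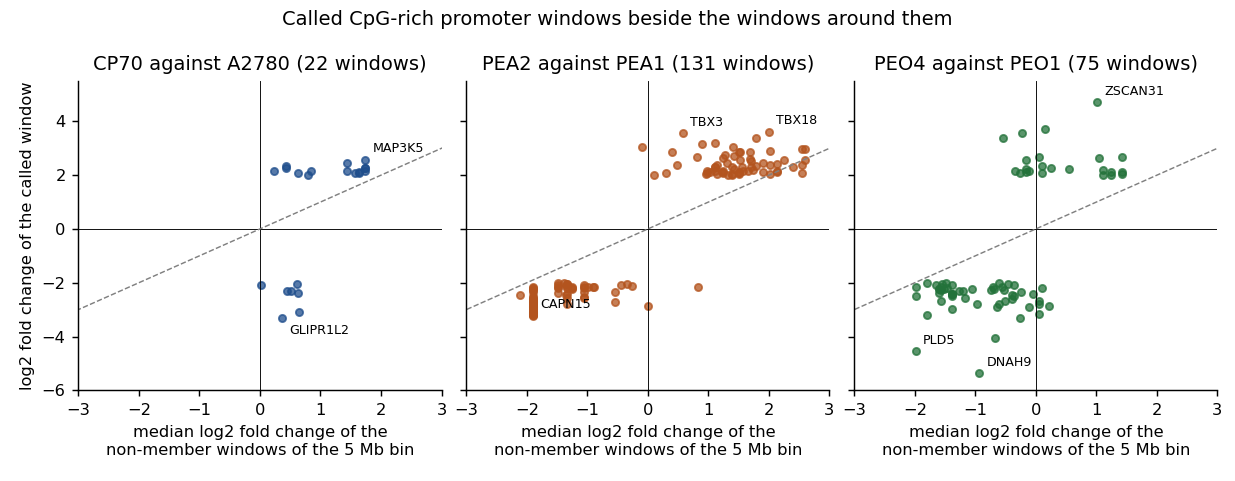
Log2 fold change of each called CpG-rich promoter (vertical axis) against the median log2 fold change of the windows of its 5 Mb bin that are not CpG-rich promoters (horizontal axis), with 1 panel for each pair and the dashed line where both are equal. All 7 windows lower in CP70 and all 15 higher lie right of 0, while 67 of 68 windows lower in PEA2 lie left of 0, 33 of them in a column at -1.89.

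The changes of the PEA and PEO pairs, which share no library, were compared by a test of their difference. It exceeded 2 on the log2 scale at 322 of 10749 CpG-rich promoters with the higher value in the PEA pair (3%, all windows 22.0%) and at 502 with the lower value (4.67%, all windows 4.56%) (limma, Benjamini-Hochberg adjusted p under 0.001). The share with the lower value was close to that of all windows. Median centring changed the counts to 81 and 1989. Among 10468 CpG-rich promoters tested in both pairs, 1587 fell in PEA2 but rose in PEO4 at an adjusted p under 0.05, 788 higher and then lower, 719 lower in both and 176 higher in both. The Spearman correlation of the changes across these windows was -0.31, as a description. Neither these counts nor the correlation was computed over all windows, so they are not read as particular to CpG-rich promoters. With 38.4% of CpG-rich promoters lower in PEA2 and 27.7% higher in PEO4, some windows fall in both sets by these shares alone.

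Called in both pairs were 5 promoters, 4 of them in opposite directions. TBX3 was higher in PEA2 and lower in PEO4, where it had 35.3, 34.8 and 37.6 FPKM in PEO1 and 7.15, 8.64 and 6.68 in PEO4 (log2 fold change -2.25, limma adjusted p = 1.2e-19). BRINP1, a gene of the nervous system, rose from 0.53 to 3.10 FPKM in PEA2 and fell from 6.11 to 0.91 in PEO4, and CATSPERE, for a subunit of a sperm calcium channel, rose from 0.97 to 4.76 and fell from 7.35 to 1.25. PTK7, a receptor of the Wnt pathway, fell from 3.92 to 0.84 FPKM in PEA2 and rose from 0.98 to 4.79 in PEO4. ADARB2, of the RNA-editing deaminase family, was lower in both, with log2 fold changes of -2.04 and -2.50, and the difference between the pairs was 0.46 (limma adjusted p = 0.27). Only BRINP1 was still called in both pairs once bin medians were removed. TBX3 was then called in PEA2 only, ADARB2 in PEO4 only, and PTK7 and CATSPERE in neither. What was left for CATSPERE was 1.13 in PEA2 and -0.52 in PEO4.

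Some CpG-rich promoters had no detectable signal in a line, taken as 3 reads or fewer in each of its libraries. There were 25 of them in PEO1 (0.23%), 7 in PEO4 (0.065%), 4 in PEA2 (0.037%) and 0 in A2780, CP70 and PEA1. The share over all windows was not computed, so these counts are not read as particular to CpG-rich promoters. The PEO1 libraries were the shallowest (8963079 reads the lowest total), which bears on the PEO1 count, and the limit covers counting error only. In both PEO lines the promoters of MTAP, CDKN2A and CDKN2B on chromosome 9 were among them, with those of HACD4 and KLHL9. CDKN2A, which encodes the cell cycle inhibitor p16, had 1.30, 2.87, 4.96 and 3.17 FPKM in A2780, CP70, PEA1 and PEA2, CDKN2B had 3.78, 3.76, 5.45 and 3.62, and MTAP 3.55, 4.65, 3.52 and 2.56. The run of 28 consecutive windows of the table around them, over 2791 kb from chr9:21031200-21032200 on, held at most 3 reads in any PEO library. NF2, a tumour suppressor gene on chromosome 22, was at this limit in both PEO lines in a single window, with a mean of 3.89 FPKM over the other 4 lines. In PEA2 FAT1, which encodes a large cadherin, was lower by at least 12.01-fold than in PEA1 (1.89 FPKM), and ACOT1, which shares sequence with ACOT2, at least 6.95-fold.

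BRCA1, BRCA2, RAD51C and FANCF, DNA repair genes with known roles in platinum response, had log2 fold changes below 1 in size. BRCA1 had line means of 1.97, 2.98, 2.82, 1.63, 7.58 and 8.27 FPKM in A2780, CP70, PEA1, PEA2, PEO1 and PEO4, with log2 fold changes of 0.56 (limma adjusted p = 0.064), -0.78 (0.0019) and 0.12 (0.43) in the 3 pairs. At RAD51C they were 0.79 (limma adjusted p = 0.0070), -0.69 (0.0085) and 0.50 (0.098), in a window that also covers the start of TEX14. FANCF, of the Fanconi anaemia core complex, had 0.44 (limma adjusted p = 0.24), 0.99 (5.3e-05) and -0.64 (1.5e-07). BRCA2 had 0.82 (limma adjusted p = 0.0078), -0.54 (0.038) and 0.06 (0.74) in the window at its start. With 5 Mb bin medians removed BRCA1, RAD51C and FANCF turned in sign both in PEA2 (0.078, 0.17 and -0.087) and in PEO4 (-0.094, -0.028 and 0.093). None of the 4 genes was called, and relative to the median of all windows the CP70 values of BRCA1 and FANCF were negative.

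Gene lists were then read at a limma adjusted p under 0.05 in each pair, against 45% higher and 1.29% lower of all CpG-rich promoters in CP70. The same shares were 15% and 38.4% for PEA2 and 27.7% and 28.6% for PEO4. Genes of a list that share a window share its value, and many lie side by side, so genes are not independent. Under the 4 other scalings (median centring, quantile normalisation, and removal of 5 Mb bin or GC medians) the CP70 medians of the lists lay between -0.16 and 0.40 and were positive throughout for HOX, protocadherin and germline genes only. In PEA2 the lists with a negative median stayed negative under all 4, as did the median of all CpG-rich promoters (-0.66 to -0.19). In PEO4 the median of 9 lists turned in sign under at least 1 of the 4 scalings. In the mismatch repair list 6 of 16 genes were higher and 0 lower in CP70. It had 2 of 15 higher and 6 lower in PEA2, and 5 of 16 higher and 4 lower in PEO4. MSH3, which recognises small loops, rose from 1.96 to 4.21 FPKM in CP70, in a 5 Mb bin with a median of 0.82. Only 0.16 was left for it with bin medians removed (limma adjusted p = 0.53). EXO1, an exonuclease of mismatch repair, fell from 19.8 to 7.95 FPKM in PEO4 (log2 fold change -1.30, but 0.66 with the median of its 5 Mb bin removed). Of 31 genes of homologous recombination and the Fanconi pathway, 9, 3 and 4 were higher and 0, 11 and 11 lower in CP70, PEA2 and PEO4. FANCE rose from 2.74 to 10.1 FPKM in PEO4 (1.86) and XRCC2 fell from 17.8 to 7.87 (-1.17). Of 15 genes of nucleotide excision repair, 5, 3 and 4 were higher and 0, 6 and 1 lower, with a fall of 1.49 for ERCC2 in PEA2. With bin medians removed 1.07 was left for FANCE, -0.41 for XRCC2 and -0.46 for ERCC2, all still past an adjusted p of 0.05. The median of all CpG-rich promoters was then 0.24 in PEO4 and -0.48 in PEA2, so ERCC2 stood near the median promoter there.

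Housekeeping lists were set against the medians of all CpG-rich promoters. The largest departures were in PEA2, -0.20 for ribosomal protein genes and 0.20 for aminoacyl-tRNA synthetase genes. After the GC removal the ribosomal protein median in PEA2 was -0.71, against -0.19 for all CpG-rich promoters. It was -0.86 against -0.66 after median centring and -0.93 against -0.54 after quantile normalisation. With bin medians removed it was -0.50 against -0.48, so the departure was nearly lost. The synthetase median in PEA2 was then -0.60, and -0.26 after the GC removal, both below that of all CpG-rich promoters. It stayed above after median centring (-0.46) and quantile normalisation (-0.36). The median log2 fold changes of 67 ribosomal protein genes were 0.49, -0.49 and 0.05 in CP70, PEA2 and PEO4, of 61 mitochondrial ribosomal protein genes 0.55, -0.40 and -0.01, of 30 proteasome genes 0.61, -0.34 and 0.06, of 29 aminoacyl-tRNA synthetase genes 0.54, -0.09 and -0.14, and of 38 spliceosome genes 0.61, -0.37 and 0.02. Of the ribosomal protein genes 22 of 67 were higher in CP70 and 0 lower, 10 higher and 32 lower in PEA2, and 19 higher and 13 lower in PEO4. Of these genes only RPS2 was called, with a fall from 3.73 to 0.732 FPKM in PEA2, in the chromosome 16 region described above, where -0.56 was left after the bin median was removed. For the mitochondrial ribosomal list these counts were 27 and 0 of 60, 14 and 28, and 16 and 16, for the proteasome 14 and 0, 3 and 12, and 6 and 8 of 29, for the synthetases 9 and 0, 4 and 10, and 7 and 11, and for the spliceosome 17 and 0, 2 and 15, and 12 and 10. In 347 KRAB and other zinc-finger genes they were 112 and 3 of 307 tested, 52 and 122 of 340, and 101 and 79 of 345. Cell cycle genes had 12 of 27 higher in CP70. They had 4 higher and 12 lower in the PEA pair, and 10 higher and 3 lower of 26 in PEO4, where CDKN1A, the p21 inhibitor, rose from 2.43 to 7.36 FPKM (1.56, and 0.77 after the bin median was removed).

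The replication-dependent histone genes, which supply histones during DNA synthesis and lie mostly in a cluster on chromosome 6, stood apart, but less so with bin medians removed. In PEA2 0 of 23 were higher and 22 lower, with a median log2 fold change of -0.90, and in PEO4 23 of 26 were higher and 0 lower, with a median of 1.18. In CP70 15 of 24 were higher and 0 lower. H4C1 fell from 4.98 to 1.24 FPKM in PEA2 and rose from 4.12 to 9.41 in PEO4, and H2BC13 rose from 3.86 to 13.8 in PEO4. With the bin median removed the rise of H4C1 was lost (0.19, limma adjusted p = 0.22), while 0.84 was left for H2BC13. Both directions were kept under each of the 4 scalings tried, with 17 to 23 lower in PEA2 and 17 to 26 higher in PEO4. Under the bin removal the histone medians were -0.66 in PEA2 and 0.36 in PEO4, against -0.48 and 0.24 for all CpG-rich promoters. Of all CpG-rich promoters, 6370 of 10607 were then lower in PEA2 and 4527 of 10647 higher in PEO4. In the part of the cluster between 25 and 30 Mb the histone genes had medians of -0.90 in PEA2 and 1.29 in PEO4, the other CpG-rich promoters there -0.57 and 1.15, and the remaining windows -0.48 and 1.02, so that the surrounding windows moved the same way. Histone genes share sequence, which limits the uniquely aligned reads they can hold, and the part of either in the changes was not tested.

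Among developmental genes, 13 of 16 HOX genes tested were higher in CP70 and 0 lower, with a median of 0.93 against 0.60 for all CpG-rich promoters. HOXB9 rose from 0.732 to 2.62 FPKM and HOXC13 from 1.14 to 3.704. In PEA2 4 of 20 were higher and 7 lower, with a fall of HOXB5 from 2.69 to 0.584 FPKM (-2.10, and -1.05 after the bin median was removed). In PEO4 4 of 15 HOX genes were higher and 7 lower, with a median of -0.32 against 0.00 for all CpG-rich promoters. After median centring these medians were 0.02 and 0.35, and with bin medians removed -0.46 and 0.24. In CP70 the HOX median stayed positive under the 4 scalings, at 0.18 to 0.39, with 2 to 7 higher. Other developmental transcription factors had 39 of 84 higher against 3 lower for CP70, 30 against 27 of 88 for PEA2, and 18 against 40 of 85 for PEO4. Their median in PEA2 was 0.04 and turned to -0.33 after median centring, against -0.29 and -0.66 for all CpG-rich promoters. The HOX promoters were less open than others, with a median of 0.18 to 0.63 of that of all CpG-rich promoters in the 6 lines.

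The share of genes with a CpG-rich promoter window that were in the table was 92.3% over all genes, and its differences between lists were not tested. It was 73.3% for HOX genes, 76.2% for other developmental transcription factors and 78.4% for promoter methylation targets in cancer. Of 25 germline genes, whose promoters are known to be methylated in most adult tissue, 4 were in the table (16%), and those outside it included DAZL, DDX4, SYCP1, SYCP3, MAEL and PIWIL1. The 4 were SYCE1, SYCE3, TDRKH and TEX14, the last in the window of RAD51C. They gave 3 higher and 0 lower of 4 in CP70, a count of 2 and 2 in PEA2, and of 1 and 1 among 3 in PEO4. Of 37 genes listed as promoter methylation targets in cancer, 29 were in the table, and RASSF1, SFRP2, WIF1 and HOXA9 were among the other 8. In CP70 11 of 23 tested were higher and 1 lower (ZIC1), in PEA2 8 and 14 of 26, and in PEO4 6 and 7 of 21. Besides TIMP3, CDH13, which encodes T-cadherin, rose from 0.486 to 3.31 FPKM in PEA2 (log2 fold change 2.51, and 1.09 after the bin median was removed), and PYCARD, the inflammasome adaptor ASC, from 0.777 to 3.59 (2.07). Of the clustered protocadherins 5 of 8 were in the table, with 3 of 3 higher in CP70, 0 of 4 in either direction in PEA2 and 4 of 5 lower in PEO4.

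Imprinted genes, expressed from the copy of a single parent, gave 7 of 21 higher and 1 lower in CP70, with 4 and 6 of 17 for PEA2 and 6 and 4 of 20 for PEO4. The lower gene in CP70 was FAM50B, from 2.46 to 0.885 FPKM. In PEO4 PEG3 with ZIM2 fell from 2.91 to 0.322 FPKM (log2 fold change -2.85) and NDN from 2.55 to 0.512 (-2.23, and -1.11 after the bin median was removed), while GNAS rose from 9.41 to 26.9 (1.51). Of 18 drug transport and glutathione genes 7 of 16, 3 of 18 and 2 of 17 were higher and 0, 7 and 4 lower in CP70, PEA2 and PEO4. ABCG2, a drug efflux pump, fell from 3.04 to 0.774 FPKM in PEO4 (-1.86), but its 5 Mb bin had a median of -1.64. Only -0.26 was left for ABCG2 with bin medians removed (limma adjusted p = 0.40). MT2A, a metallothionein, rose from 1.81 to 4.73 FPKM in CP70 (1.32, and 0.72 after the bin median was removed).

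Markers of ovarian and Mullerian epithelium served as a check of the labels. Of 12 genes, 9 had a CpG-rich promoter window, and all 9 were in the table. WT1 had 16.5 and 20.6 FPKM in PEO1 and PEO4, against 1.10 to 4.10 in the other lines, and EPCAM 11.3 and 10.5 against 0.740 to 2.09. A PEO line was the highest at 90.1% of all CpG-rich promoters, so a higher PEO level is not particular to these genes. The median marker stood at 0.40, 0.38 and 0.29 times the median of all CpG-rich promoters in A2780, CP70 and PEA1, lowest in PEA1, and at 0.75, 0.74 and 0.77 times in the other 3 lines. In PEA2 8 of 9 were higher than in PEA1 and 1 lower (KRT18), with rises from 1.01 to 2.44 FPKM for CDH1, the epithelial cadherin, and from 0.911 to 2.24 for ESR1, the oestrogen receptor. After median centring or quantile normalisation 3 were higher and 1 lower. In PEO4 5 of 8 were higher and 2 lower, and in CP70 2 of 5 were higher. Of 11 markers of blood, vessel and connective tissue cells 0 had a CpG-rich promoter window, so this class of window holds no check for such cells.

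**Figure D5:**
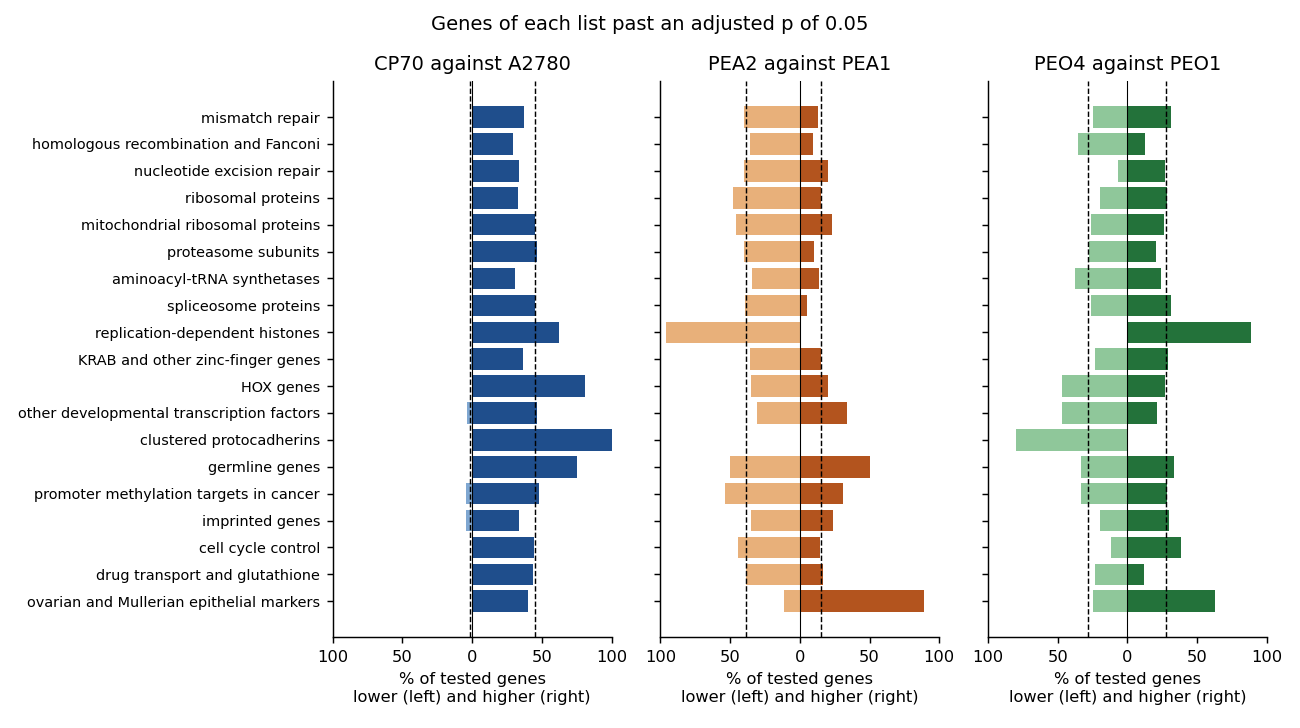
Share of the tested genes of each list (horizontal axis, %) past a limma adjusted p of 0.05, lower (left of 0) or higher (right of 0) in the resistant line, with dashed lines at the shares of all CpG-rich promoters. Histone genes are nearly all lower in PEA2 (22 of 23) and higher in PEO4 (23 of 26), HOX genes extend past the dashed line in CP70, and some lists hold few tested genes, such as 3 or 4 germline genes.

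Levels were then described by features of the windows, of which the CpG ratio, the GC content and the distance from the start are limited by the rule itself. Within the class, windows in the highest of 5 equal groups by CpG ratio were more open than those in the lowest. The median rose from 1.80 to 2.52 FPKM in A2780, from 2.82 to 3.93 in CP70, from 2.98 to 3.84 in PEA1 and from 2.38 to 2.95 in PEA2. In the PEO lines it rose from 6.46 to 9.11 (PEO1) and from 6.53 to 9.25 (PEO4), and the ratio was 1.24 to 1.45 in all 18 libraries. Windows centred within 100 bp of the start were more open than those 400 to 500 bp away, at 2.33 against 1.92 FPKM in A2780 and 8.67 against 6.97 in PEO4. The 629 windows with starts on both strands had 1.09 to 1.46 times the median of the others in the 18 libraries. Windows with GGGCGG had 1.14 to 1.38 times the median of those without in the 6 lines, and windows with TATAAA 0.93 to 0.97 times.

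The changes in the PEA and PEO pairs moved with GC content. From the lowest to the highest of 5 equal groups by GC the median log2 fold change went from -0.20 to -0.39 in PEA2 and from -0.12 to 0.16 in PEO4, while in CP70 it stayed between 0.54 and 0.64. Base composition also affects amplification of libraries, and its part was not tested. At the edges of the class the levels were close to those outside it. Windows at gene starts with a CpG ratio of 0.6 to 0.65 (859 windows) had a median of 1.74 FPKM in A2780 and 5.996 in PEO1, against 1.68 and 5.598 for a ratio of 0.55 to 0.6 (535 windows). For a GC content of 50% to 52% (371 windows) the medians were 1.93 and 6.70, against 2.00 and 7.29 for 48% to 50% (262 windows).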

How the data were processed

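The libraries were sequenced as read pairs. According to the study's methods the authors ran Bowtie2 against hg19, kept reads that aligned uniquely, removed duplicates with Picard and blacklisted and mitochondrial reads, counted reads in tiled windows with featureCounts and computed FPKM with the rpkm function of edgeR, with versions not given in the sources used here. The deposited FPKM values are the authors' RPM, the reads of a window per library total, divided by a constant window length. Every sample column was used, and all values were whole reads within 0.01 of a read, which gave library totals of 8963079 to 60435027 reads and a median of 45 to 179 reads per CpG-rich promoter. Unique alignment leaves repeated genes with little signal, and each window of the table exceeded 2 FPKM in at least 2 libraries.

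Window coordinates matched the GRCh37 chromosome lengths at 23 of 23 chromosome steps. Starts were those of GENCODE canonical protein-coding transcripts on GRCh37. The members, gene lists and motifs were chosen with earlier results of these data known. Windows whose mean over the libraries compared exceeded 1 FPKM were kept, log2(FPKM + 0.1) was taken, and lines were compared with limma 3.58.1 (trend) in R 4.3.3 over all windows of the table, with Benjamini-Hochberg adjustment over all windows tested. Of the CpG-rich promoters 10223, 10607 and 10647 passed this filter (A2780, PEA and PEO pair in turn), and a window open in a single line of a pair can pass through that line alone. The study weighted counts, and the trend stands in for the weights. Methods were tested on simulated data.

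Named windows were up to 6 called windows per pair and direction with the largest change and no overlap of libraries, the 6 with the highest level and the 6 each with the smallest and largest range over lines, BRCA1, BRCA2, RAD51C and FANCF, and up to 3 genes per list with the largest change at an adjusted p under 0.05. Windows called in both patient-derived pairs, those at the limit of detection, and further genes of the lists (such as WT1, EPCAM, PYCARD, HOXB9, HOXC13, GNAS, FAM50B and ZIC1) were named after their values were seen. A further gene of the rule and the bases of a promoter are not reported here. The gene was left out of the lists, and its window stays in the counts over all windows. Alternatives were stricter member rules, a pseudocount of 1, other filters, edgeR 4.0.16 on the recovered reads, other scalings, other thresholds, the replicate number as a block and each library left out. Replicate libraries differed by a chi-square of 1.07 to 2.10 per window, 0 pairs were identical, and all were kept.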

Additional observations from a re-analysis of the deposited data

Results flagged for a closer look

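The changes of the PEA and PEO pairs were tested for their difference (limma, Benjamini-Hochberg adjusted p under 0.001, difference over 2 on the log2 scale). The test passed at 322 CpG-rich promoters with the higher change in the PEA pair (3%, all windows 22.0%). It passed at 502 with the lower (4.67%, all windows 4.56%), a share close to that of all windows. After median centring the counts were 81 and 1989. The 4 promoters called in both pairs in opposite directions are among these. Such calls already require a difference over 2, so passing this test adds no support for them. The difference, PEA change less PEO change, was 5.82 on the log2 scale for TBX3, 4.97 for BRINP1, 4.65 for CATSPERE and -4.27 for PTK7. Each of the 3 libraries of a line lay beyond those of its partner in both pairs at these 4 promoters, which the call thresholds all but require. Of the 4, only BRINP1 was still called in both pairs once 5 Mb bin medians were removed. No group held more than 3 libraries, so single libraries were not tested as outliers.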

How the results depend on the processing

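The median shift of CpG-rich promoters against all windows kept its sign in PEA2 and PEO4 under every alternative run. Depth limits the PEO1 values most, and windows near 3 reads carry little weight. Unless a cause is given by fewer windows tested, the cause of a change below was not tested.

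With centres within 250 bp, 4 CpG-rich promoters were lower in CP70, 40 higher and 40 lower in PEA2, 14 higher and 32 lower in PEO4, 3756 differed among the lines, and 172 and 286 were higher and lower in the PEA than in the PEO change. With GC over 55% and a CpG ratio over 0.75 the counts were 3 lower in CP70, 35 higher in PEA2, 14 and 29 higher and lower in PEO4, 4175 among lines, and 167 higher in the PEA change. Both rules leave fewer windows. A pseudocount of 1 gave 1 and 1 in CP70, 11 and 26 in PEA2, 3 and 12 in PEO4, 4166 among lines, and 129 and 179, with medians against all windows of -0.44 in PEA2 and 0.24 in PEO4. A minimum mean of 5 FPKM, with fewer windows tested, gave 3 and 0 in CP70, 10 and 21 in PEA2, 8 and 18 in PEO4, 4210 among lines, 143 and 321, and medians of -0.12 in PEA2 and 0.15 in PEO4. With no filter the median in CP70 was 0.31. An upper depth limit gave 9 higher in CP70, 36 and 25 in PEA2, 1873 among lines, 182 and 192, and a median of -0.78 in PEA2. At thresholds of 1 and 0.05 the counts were 911 and 58 in CP70, 580 and 1513 in PEA2, 543 and 601 in PEO4, 10340 among lines, and 1376 and 2572.

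Median centring gave 1 and 22 in CP70, 29 and 221 in PEA2, 71 and 27 in PEO4, 3088 among lines, and 81 and 1989. Quantile normalisation gave 1 and 15, 28 and 261, 44 and 30, 2342, and 167 and 1438, with medians of -0.48 in PEA2 and 0.20 in PEO4. Removal of 5 Mb bin medians gave 0 higher in CP70, 8 and 33 in PEA2, 19 lower in PEO4, 1912 among lines, 32 higher in the PEA change, and medians of -0.38 and 0.19. Removal of the medians of windows of like GC gave 0 and 25 in CP70, 2137 among lines, and medians of -0.21 and 0.046. edgeR on the recovered reads gave 22 and 9, 73 and 94, 25 and 63, 6779, and 336 and 561.

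Some promoters turned in sign, none of them called at the main thresholds in that comparison. In CP70 BRCA1 was -0.02 after median centring, -0.053 after quantile normalisation and -0.20 with bin medians removed, FANCF was -0.14, -0.16 and, with the GC removal, -0.15, and the window shared by ZAR1L and BRCA2 was -0.11 with bin medians removed. With bin medians removed, the PEA2 values were 0.078 for BRCA1, -0.52 for CCNB1, -0.17 for ERCC8, -0.087 for FANCF, 0.17 for RAD51C, -0.0089 for RARS2, -0.47 for RBBP8 and -0.54 for SYCE3. The PEO4 values were then -0.094 for BRCA1, 0.66 for EXO1, 0.093 for FANCF, -0.028 for RAD51C and 0.13 for the ZAR1L window, which was 0.063 after median centring and 0.029 after quantile normalisation. BRCA2 in PEO4 was -0.016 without replicate 3 of PEO1 and -0.0098 without replicate 2 of PEO4.

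With each library left out in turn, the median against all windows was -0.05 to 0.05 in CP70, -0.65 to -0.53 in PEA2 and 0.28 to 0.34 in PEO4. Counts were 5 to 32 higher and 4 to 9 lower in CP70, 52 to 76 and 62 to 101 in PEA2, 18 to 27 and 50 to 58 in PEO4, 6533 to 7064 among lines, and 264 to 373 and 432 to 637 for the difference of the PEA and PEO changes. Without replicate 1 of CP70 5 were higher, without replicate 3 of CP70 32 and without replicate 2 of A2780 25.

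Replicate numbers did not pair the libraries: the deviations of same-numbered libraries from their line means had correlations of -0.41 to 0.04 across windows. With the replicate number as a block the counts of calls were 15 and 7, 63 and 68, 23 and 52, 6779, and 322 and 502.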
